A study of Mus musculus with 12 samples.

Results

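Fatty acid oxidation and its regulators were followed in kidney cortex through 37 genes, all of which were found in the deposited table of 37681 mouse genes, each under 1 Ensembl identifier. Of these genes 26 were grouped as mitochondrial, 7 as peroxisomal, 2 as ketone body genes and 2 as transcriptional regulators. The groups are lists, and where each product acts was not measured. Some, such as Acad11 and Eci2 in the mitochondrial group, may not act in mitochondria alone. All 37 had enough reads to be tested, among 19399 genes tested in all.

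RNAseq was performed on a thin outer slice of kidney cortex from untreated C57BL/6 males, 18 months old. TRACK mice (γ-HIF1αM3, TG+) carry a mutated, constitutively active HIF1α that the series title ties to the promoter of γ-glutamyl transferase (GGT), a gene of the proximal tubule, where the study places the transgene. Their wild-type littermates (TG-) served as controls. Each group held 3 mice, 43-29, 43-49 and 43-75 for TG+ and 43-26, 43-50 and 43-76 for TG-, and the values of a group are given in that order. Each mouse gave 2 libraries, 1 from each kidney, which were summed, because the kidneys of 1 mouse are not independent animals. Between 48052131 and 60506785 reads per mouse fell on genes.

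In β-oxidation a fatty acid is first joined to coenzyme A by a ligase. Long acyl chains then cross the inner mitochondrial membrane bound to carnitine, and inside the matrix dehydrogenases, hydratases and thiolases shorten the chain step by step, while an electron transfer flavoprotein passes the electrons to the respiratory chain. Peroxisomes shorten very long and branched chains and hand the products on as carnitine esters. The nuclear receptor PPARα and its coactivator PGC-1α switch many of these genes on, and the proximal tubule is known to rely on fatty acids as fuel.

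In TG+ kidney cortex 17 of the 37 genes showed decreased mRNA levels, most of them by modest amounts, and 1 gene, Crot, showed increased levels. These calls are at an adjusted p below 0.05 (edgeR's quasi-likelihood test, Benjamini-Hochberg over all genes tested), where 10.9% of all genes tested were lower and 15.4% were higher. The largest falls were those of Acsm2, Acaa1b, Ppara and Cpt1a. The median log2 fold change was -0.30 over the 37 genes and 0.01 over all genes tested, and 35 of the 37 genes lay below 0. The exceptions were Crot and Acadm. With scaling by library size alone these medians were -0.18 and 0.13. The same count was made among genes with a mean of at least 50 CPM (reads scaled to the normalized library size). There 17 of 34 members were lower, beside 28.2% of the 3903 genes of that level. With the threshold of the study, an adjusted p below 0.01 and a fold change above 2 or below 0.5, none of the 37 was called, 0 lower beside 0.211% of all genes and 0 higher beside 3.77%. In this test 26 of the 37 had an unadjusted p below 0.05, beside 39.1% of all genes tested, and DESeq2 likewise called 0 members at that threshold. In a bulk tissue sample fewer cells of a type and less RNA per cell cannot be told apart.

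The 3 TG+ mice did not overlap with the 3 TG- mice for 24 of the 37 genes, 23 of them lower in TG+, beside 44.2% of all genes tested in either direction. Summed over the 37 genes, the TG- mice held 13909, 15615 and 14519 CPM and the TG+ mice held 10700, 10274 and 10963 CPM, so that every TG+ mouse was below every TG- mouse. Acsm2 alone made up 60.8% of the difference between the group means. Without Acsm2 the sums were 8432, 10077 and 8925 CPM in TG- and 7479, 7441 and 7772 CPM in TG+, and the groups still did not overlap.

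**Figure D1:**
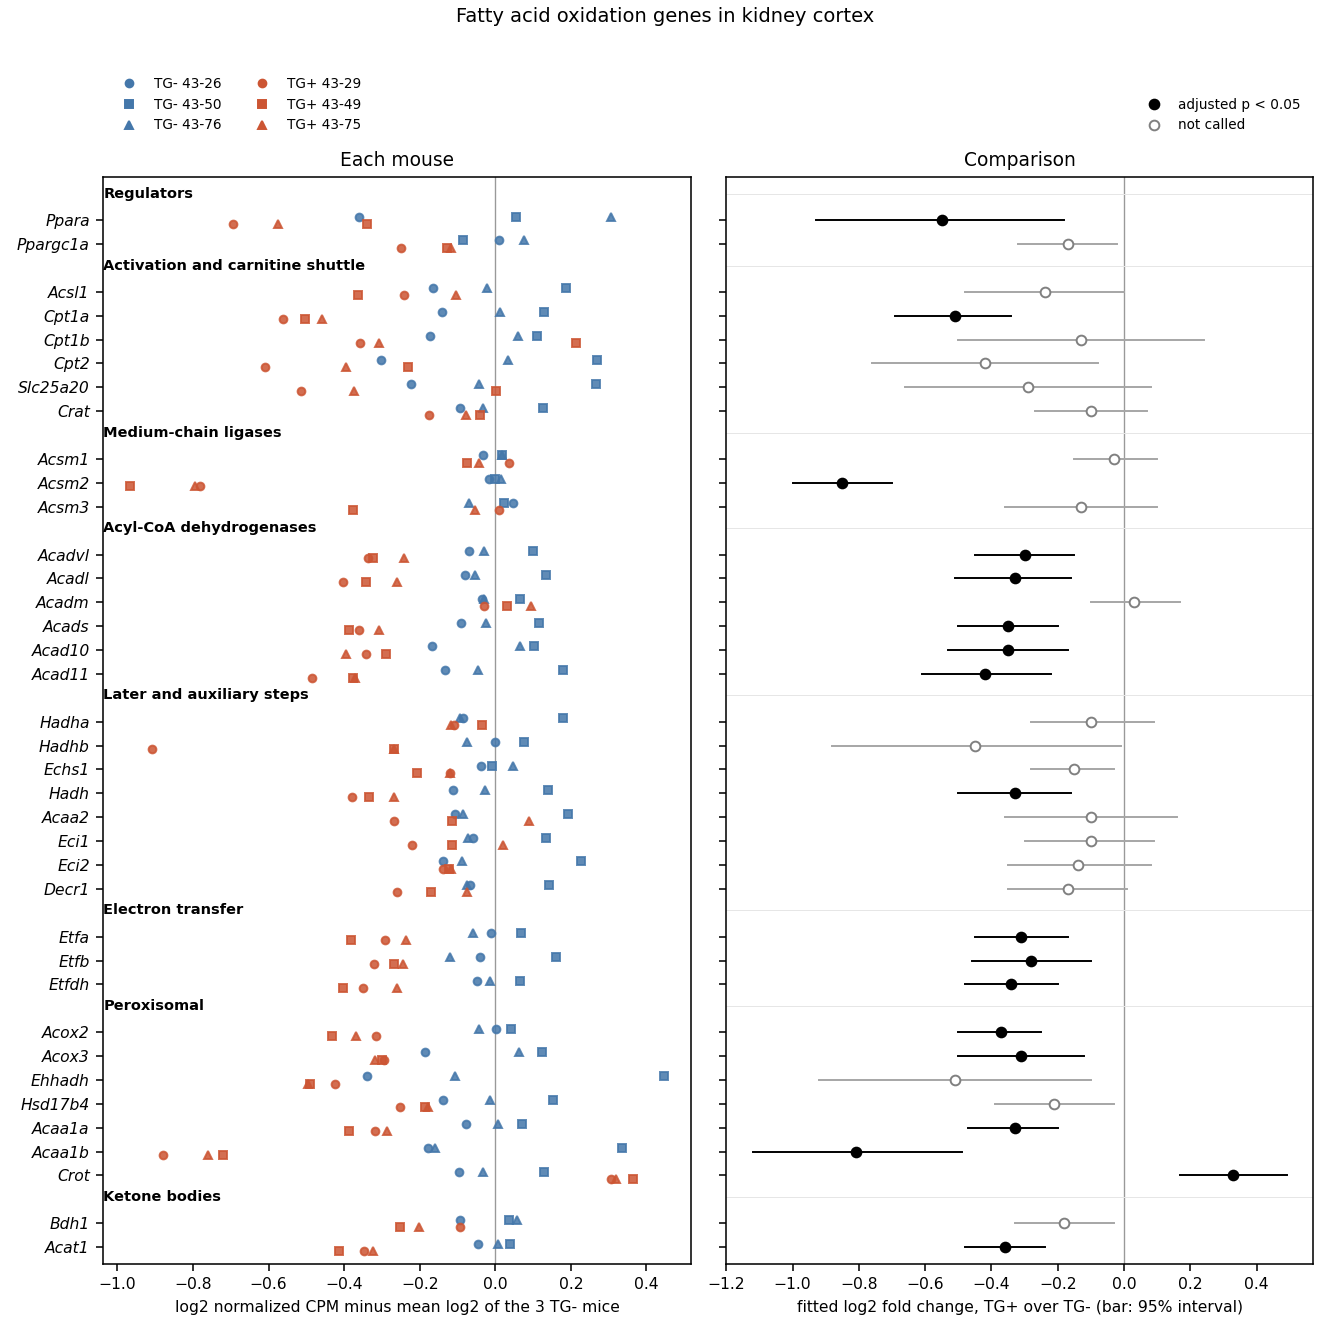
Left, normalized CPM of each of the 37 genes in each mouse as a log2 difference from the mean of the 3 TG- mice (blue TG-, red TG+). Right, the fitted log2 fold change of TG+ over TG- with its 95% interval, filled where the adjusted p was below 0.05. The filled points lie left of 0 for 17 genes and right of 0 for Crot, and Acsm2 and Acaa1b lie farthest left, at -0.85 and -0.81.

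The promoters of the 2 genes that fell most and of 1 mitochondrial dehydrogenase that also fell are shown for context. They are the 250 bases before the transcription start, from RefSeq on GRCm38.p6, and hold no annotated exon. Capitals mark AGGTCA, the hexamer that nuclear receptors such as PPARα bind, and ACGTG or GCGTG, the core letters of hypoxia response elements, on either strand.
Acsm2, chr7:119554090-119554339, plus strand: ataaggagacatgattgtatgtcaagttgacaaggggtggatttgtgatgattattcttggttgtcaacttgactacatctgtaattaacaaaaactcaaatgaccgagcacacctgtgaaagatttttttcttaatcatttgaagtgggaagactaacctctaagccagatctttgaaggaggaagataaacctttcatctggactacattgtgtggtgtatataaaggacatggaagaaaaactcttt
Acaa1b, chr9:119157094-119157343, minus strand: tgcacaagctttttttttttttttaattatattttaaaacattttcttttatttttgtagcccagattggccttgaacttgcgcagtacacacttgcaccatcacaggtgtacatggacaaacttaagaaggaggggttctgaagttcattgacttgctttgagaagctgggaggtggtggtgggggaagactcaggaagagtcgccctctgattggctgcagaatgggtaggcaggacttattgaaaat
Acadvl, chr11:70015429-70015678, minus strand: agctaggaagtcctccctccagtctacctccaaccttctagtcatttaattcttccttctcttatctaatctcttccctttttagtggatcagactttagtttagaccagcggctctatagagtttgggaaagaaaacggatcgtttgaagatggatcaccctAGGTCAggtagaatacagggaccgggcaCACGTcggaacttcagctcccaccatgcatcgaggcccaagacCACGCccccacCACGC

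None of the marked letters stand in the windows shown for Acsm2 and Acaa1b, whereas the Acadvl window holds AGGTCA 1 time, ACGTG 1 time and GCGTG 2 times. Acsm2 has 2 annotated windows, and only the first listed was searched. Promoter windows of 300 bases, 250 before and 50 after the start, were given for 31 of the 37 genes. AGGTCA was found in 5 of the 31 (16.1%) and in 16% of 27025 mouse promoters. A direct repeat of AGGTCA with 1 base between the copies, the usual form of a PPARα element, was found in 0 of the 31 and in 0.0444% of all promoters. ACGTG was found in 2 of the 31 (6.45%) against 19.7% of all promoters, and GCGTG in 17 (54.8%) against 32.5%. The letters describe these short windows and show no binding.

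Among the regulators, Ppara, which encodes PPARα, was decreased. Its level was 73, 97.4 and 116 CPM in the TG- mice and 58, 74.1 and 62.9 CPM in the TG+ mice. The TG- mice spread widely, and the lowest of them lay just under the highest TG+ mouse, so the groups overlapped. The fitted change was -0.55 on the log2 scale (SE 0.16, adjusted p = 0.0405), where SE is the standard error, and an exact permutation test over the 6 mice gave p = 0.2, where 0.1 is the smallest p that 3 against 3 mice allow. This call depended on single mice. The adjusted p was 0.101 without 43-29, 0.0988 without 43-50, 0.105 without 43-75 and 0.118 without 43-76, and it was 0.095 with scaling by library size alone. Ppargc1a, which encodes PGC-1α, stood at 105, 98.3 and 110 CPM in TG- and 87.7, 95.4 and 96.1 CPM in TG+. These groups did not overlap, but the difference was small, with a log2 fold change of -0.17 (95% interval -0.32 to -0.02) and an adjusted p of 0.0903.

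In the first step of the mitochondrial pathway the medium-chain ligases divided. Acsm2, a mitochondrial ligase of medium-chain fatty acids, had the highest level per kilobase of the 37 genes in both groups and the largest fall. It stood at 5477, 5538 and 5594 CPM in TG- and at 3221, 2833 and 3191 CPM in TG+. The TG- mice were nearly alike, and every TG+ mouse lay far below them. The mean fell by 44.3%, from 5537 ± 58.3 to 3081 ± 216 CPM (SD, n = 3 mice each), with a log2 fold change of -0.85 (SE 0.06, adjusted p = 1.44e-04 by edgeR).

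Acsm1 and Acsm3, ligases of the same family, lie downstream of Acsm2 on the same stretch of chromosome 7 (GENCODE M21, GRCm38), where Acsm2 spans 119554340 to 119600690, Acsm1 spans 119607026 to 119662515 and Acsm3 spans 119760923 to 119787513, all on the plus strand. Neither was called. Acsm1 had a log2 fold change of -0.03 (95% interval -0.15 to 0.10), and Acsm3 had -0.13 (95% interval -0.36 to 0.10). Within each mouse, the level of Acsm2 per kilobase of its longest coding transcript was 11.9, 11.6 and 11.6 times that of Acsm1 in TG- and 6.63, 6.29 and 6.97 times in TG+. This ratio does not depend on how libraries are scaled. The mean log2 ratio differed by -0.82 between the groups, which did not overlap (exact permutation p = 0.1, the smallest possible, 2-sided). The ratio of Acsm2 to Acsm3 differed by -0.71 (exact permutation p = 0.1). Acsm3 shares 33.8% of its transcript sequence, in 51-base words, with Eri2 on the other strand, so its reads cannot be assigned with certainty. Acsm5, a further ligase of the family just upstream on the same chromosome (119519463 to 119545551) and not among the 37, also fell, with a log2 fold change of -0.63 (SE 0.08, adjusted p = 0.00166).

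Long chains enter mitochondria through the carnitine shuttle, and here Cpt1a, the liver form of the outer membrane carnitine palmitoyltransferase and the rate-limiting enzyme of the pathway, was decreased. Its level was 683, 824 and 760 CPM in TG- and 510, 531 and 548 CPM in TG+. All TG+ mice were below all TG- mice, and the mean fell by 29.9% (log2 fold change -0.51, SE 0.08, adjusted p = 0.00284). Cpt1b, the muscle form, stood at 14.6 to 21.7 CPM over all mice and was not called (log2 fold change -0.13, 95% interval -0.50 to 0.24). Per kilobase, Cpt1a was 26.2 to 27.7 times as abundant as Cpt1b in the TG- mice and 16.4 to 24.4 times in the TG+ mice. The lowest ratio and the highest Cpt1b level belonged to 43-49, the mouse with the most adipocyte transcripts. A link between these was not tested. Without 43-49 Cpt1b had a log2 fold change of -0.34 and an adjusted p of 0.0479 by edgeR. Cpt1b shares 78.5% of its sequence with a read-through transcript, Gm44502.

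The remaining genes of activation and transport did not pass edgeR's test. Cpt2, the inner membrane transferase, ranged from 161 to 239 CPM in TG- and from 130 to 169 CPM in TG+ (log2 fold change -0.42, 95% interval -0.76 to -0.08, adjusted p = 0.0712). Without the TG- mouse 43-26, the lowest of its group, the adjusted p was 0.0193, and without the TG- mouse 43-50 the log2 fold change was -0.28 and the adjusted p was 0.194. DESeq2 called Cpt2 lower (adjusted p = 0.0118). Slc25a20, the carnitine-acylcarnitine translocase, and Acsl1, a long-chain ligase, had log2 fold changes of -0.29 and -0.24, and Crat, the short-chain carnitine acetyltransferase, had -0.10. In all 3 the groups overlapped. Slc25a20 had an adjusted p of 0.216, and its log2 fold change was -0.15 without 43-50 (adjusted p = 0.545) and -0.46 without 43-49 (adjusted p = 0.057). The name of the deposited table groups the mice into 3 pairs, each of a TG+ and a TG- mouse, and with these pairs as a block in the edgeR fit Cpt2 had a log2 fold change of -0.41 (adjusted p = 0.004) and Slc25a20 had -0.29 (adjusted p = 0.00748), so that both were called.

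The acyl-CoA dehydrogenases, which open each turn of the cycle, were lower in 5 of 6, beside 10.9% of all genes tested and 28.2% of those of at least 50 CPM. Acadvl and Acadl act on the longest chains and Acads on the shortest. Acadvl stood at 242, 272 and 249 CPM in TG- and 201, 203 and 215 CPM in TG+. Acadl stood at 289, 335 and 294 CPM against 231, 241 and 255 CPM. Acads stood at 194, 224 and 203 CPM against 161, 158 and 167 CPM. For each of the 3 genes every TG+ mouse lay below every TG- mouse, a separation of the groups that 44.2% of all genes tested showed in either direction, and the log2 fold changes were -0.30, -0.33 and -0.35, with adjusted p-values of 0.0114, 0.0139 and 0.00751. With scaling by library size alone the 3 values were -0.18, -0.21 and -0.23, all still called. Acadvl shares 26.6% of its sequence with the overlapping gene Dvl2, which itself had a log2 fold change of -0.27.

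Acad10 and Acad11, further members of the dehydrogenase family, also fell. Acad10 stood at 63.8, 76.8 and 74.9 CPM in TG- and 56.5, 58.6 and 54.4 CPM in TG+ (log2 fold change -0.35, adjusted p = 0.015). Acad11 stood at 277, 344 and 294 CPM against 217, 234 and 235 CPM (log2 fold change -0.42, adjusted p = 0.0106). Neither pair of groups overlapped. The call of Acad10 was lost without 43-75 (adjusted p = 0.0508), without 43-76 (adjusted p = 0.06) or with scaling by library size alone (-0.23, adjusted p = 0.0648). Of its sequence 17% is shared, nearly all of it with its neighbour Acad12. Acadm, the medium-chain dehydrogenase, was the exception. It ranged from 368 to 394 CPM in TG- and from 369 to 402 CPM in TG+, the groups overlapped throughout, and the log2 fold change was 0.03 with a 95% interval of -0.10 to 0.17.

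Of the 8 genes of the later and auxiliary steps edgeR called 1 (12.5%), beside 10.9% of all genes tested. Hadh, the dehydrogenase of short-chain hydroxyacyl-CoA, fell from 541, 645 and 574 CPM in TG- to 450, 464 and 486 CPM in TG+ (log2 fold change -0.33, adjusted p = 0.0156), with no overlap between the groups. The call was lost with scaling by library size alone (-0.21, adjusted p = 0.0513). Hadha, the large subunit of the trifunctional protein, had a log2 fold change of -0.10 (95% interval -0.28 to 0.09). The thiolase Acaa2 and the isomerase Eci1 had the same log2 fold change as Hadha, and the isomerase Eci2 had -0.14. In these 4 genes the groups overlapped. The hydratase Echs1 and the dienoyl-CoA reductase Decr1 had log2 fold changes of -0.15 and -0.17 with groups that did not overlap, and adjusted p-values of 0.0733 and 0.151 by edgeR. DESeq2 called Echs1 lower (adjusted p = 0.0436). Hadhb, which encodes the partner subunit of Hadha, stood at only 1.39 to 2.75 CPM. Per kilobase, Hadha exceeded it 34.2 to 39 times in TG- and 40.1 to 62.9 times in TG+. A related gene on another chromosome, Gm13910, shares 1225 of the 6778 51-base words of Hadhb and held 30.7 to 39.3 CPM, so the value of Hadhb is uncertain.

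The mRNA of all 3 electron transfer genes was lower in TG+, beside 10.9% of all genes tested and 28.2% of those of at least 50 CPM. Etfa and Etfb encode the subunits of the electron transfer flavoprotein, and Etfdh encodes the oxidoreductase that takes its electrons to ubiquinone. Etfa stood at 124, 131 and 120 CPM in TG- and 102, 95.8 and 106 CPM in TG+. Etfb stood at 282, 324 and 267 CPM against 232, 241 and 245 CPM. Etfdh stood at 207, 224 and 212 CPM against 168, 162 and 179 CPM. No TG+ mouse reached the lowest TG- mouse in any of the 3. The log2 fold changes were -0.31 for Etfa, -0.28 for Etfb and -0.34 for Etfdh, with adjusted p-values of 0.00891, 0.0308 and 0.00586. The call of Etfb was lost when any of 5 mice was left out. The adjusted p was 0.0523 without 43-26, 0.0763 without 43-29, 0.052 without 43-49, 0.0622 without 43-50 and 0.0612 without 43-75. With scaling by library size alone Etfb was at -0.16 (adjusted p = 0.128), while Etfa at -0.19 and Etfdh at -0.22 were still called. Of the sequence of Etfb 44.6% is shared with other genes, nearly all of it with Gm45233.

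Over the mitochondrial genes the median change was -0.29 on the log2 scale, with 11 of 26 lower and 0 higher at an adjusted p below 0.05 by edgeR, beside 10.9% and 15.4% of all genes tested and 28.2% lower among genes of at least 50 CPM. At an unadjusted p below 0.05 there were 15 of 26, beside 39.1% of all genes tested, and DESeq2 called 0 higher. Without the TG- mouse 43-50 this median was -0.18, and with scaling by library size alone it was -0.16.

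**Figure D2:**
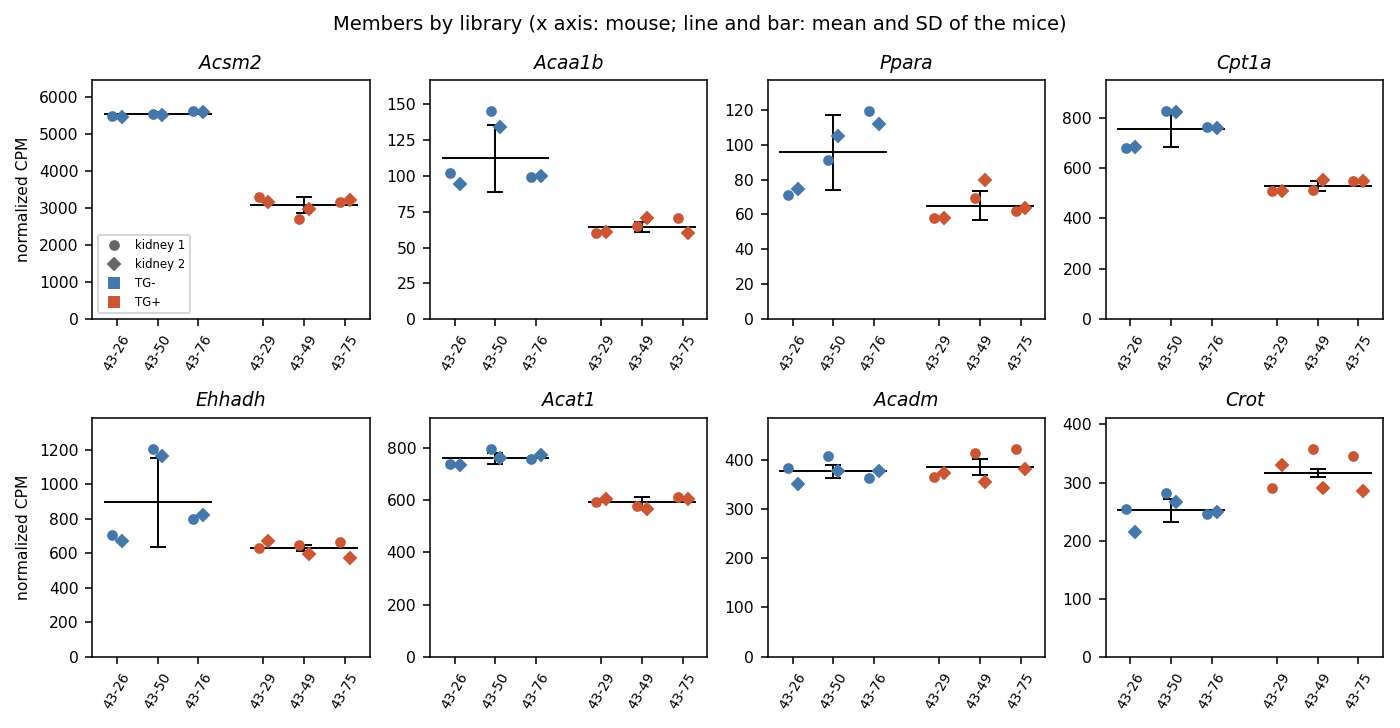
Normalized CPM of 8 members in each of the 12 libraries, grouped by mouse, with circles for kidney 1 and diamonds for kidney 2, and the mean and SD of the 3 mice of each group. Acsm2, Acaa1b, Cpt1a and Acat1 show TG+ libraries below all TG- libraries, Acadm shows mixed groups, Crot shows the reverse order, and Ehhadh shows the TG- mouse 43-50 high in both kidneys.

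Both kidneys of a mouse gave nearly the same values. Over the 37 genes the median absolute log2 difference between them was 0.043, against a median SD of 0.104 between mice of 1 group. The largest difference between the kidneys of a mouse was 0.42, for Cpt1b in 43-75. Taken separately, kidney 1 gave 16 lower members beside 8.95% of all genes tested, and kidney 2 gave 17 beside 8.61%. For 19 of the 37 genes the 6 TG+ libraries did not overlap with the 6 TG- libraries, beside 25% of all genes tested in either direction.

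Over the peroxisomal genes the median change was -0.33 on the log2 scale, with 4 of 7 lower and 1 higher by edgeR, beside 10.9% and 15.4% of all genes tested and 28.2% lower among genes of at least 50 CPM. With scaling by library size alone the median was -0.21. Acaa1b, a peroxisomal thiolase, fell from 98.1, 140 and 99.4 CPM in TG- to 60.3, 67.3 and 65.5 CPM in TG+. The mean fell by 42.8% (log2 fold change -0.81, SE 0.14, adjusted p = 0.00488), and the groups did not overlap. Its paralog Acaa1a, on the same chromosome, stood at 53.9, 59.7 and 57.2 CPM against 45.6, 43.5 and 46.6 CPM (log2 fold change -0.33, adjusted p = 0.00593, and -0.21 with adjusted p = 0.0206 under scaling by library size alone). The paralogs share 576 51-base words of transcript, so some reads may have been counted on either. Per kilobase, Acaa1b was 1.81 to 2.45 times Acaa1a in TG- and 1.38 to 1.62 times in TG+, and this ratio also did not overlap between the groups (exact permutation p = 0.1).

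Acox2 and Acox3 are oxidases that start the breakdown of branched chains and bile acid side chains. Acox2 stood at 93.1, 95.8 and 90.2 CPM in TG- and 74.7, 68.9 and 72.1 CPM in TG+ (log2 fold change -0.37, adjusted p = 0.00263). Acox3 stood at 318, 394 and 378 CPM against 295, 294 and 290 CPM (log2 fold change -0.31, adjusted p = 0.027). In both the groups were apart, but the call of Acox3 was lost without 43-29 (adjusted p = 0.0571), 43-49 (0.0519), 43-50 (0.0768), 43-75 (0.0746) or 43-76 (0.0949), and with scaling by library size alone (-0.19, 0.101). Ehhadh, the bifunctional enzyme and a well-known PPARα target, stood at 691, 1191 and 812 CPM in TG- and at 652, 622 and 620 CPM in TG+. The TG+ mice were close to each other and below all TG- mice, whose spread came from 43-50, and the log2 fold change of -0.51 (95% interval -0.92 to -0.10) had an adjusted p of 0.069 by edgeR. It was called lower by DESeq2 (-0.52, adjusted p = 0.00745) and by edgeR with no filter on low counts (adjusted p = 0.0466). Without 43-26 the adjusted p of Ehhadh was 0.0203, and without 43-50 the log2 fold change was -0.25 and the adjusted p was 0.071. Hsd17b4, the other bifunctional enzyme, had a log2 fold change of -0.21 and an adjusted p of 0.0859 by edgeR, and of 0.045 by DESeq2. For Hsd17b4 the adjusted p was 0.0367 without 43-26 and 0.216 without 43-50, where the log2 fold change was -0.13. With the pairs of mice as a block Hsd17b4 had -0.20 and an adjusted p of 0.0496.

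Crot, the peroxisomal carnitine octanoyltransferase that hands shortened chains to mitochondria, was increased. It stood at 236, 276 and 247 CPM in TG- and at 312, 325 and 315 CPM in TG+. Every TG+ mouse was above every TG- mouse, and the mean was higher by 25.6% (log2 fold change 0.33, SE 0.07, adjusted p = 0.0108). Without the TG- mouse 43-76 the log2 fold change was 0.31 and the adjusted p was 0.0505. Crot lies on chromosome 5 from 8966033 to 8997324, minus strand, and shares 4.59% of its sequence with other genes.

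Of the ketone body genes, Acat1, the mitochondrial acetoacetyl-CoA thiolase, fell from 738, 783 and 765 CPM in TG- to 599, 572 and 609 CPM in TG+. The groups were far apart (log2 fold change -0.36, SE 0.05, adjusted p = 0.00276), and the SD of log2 CPM between mice of a group, 0.0446, was the smallest of the 37 genes. Bdh1, the dehydrogenase of hydroxybutyrate, stood at 126 to 140 CPM in TG- and 113 to 126 CPM in TG+ and was not called by edgeR (log2 fold change -0.18, adjusted p = 0.0742), whereas DESeq2 called it lower (-0.19, adjusted p = 0.0466).

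**Figure D3:**
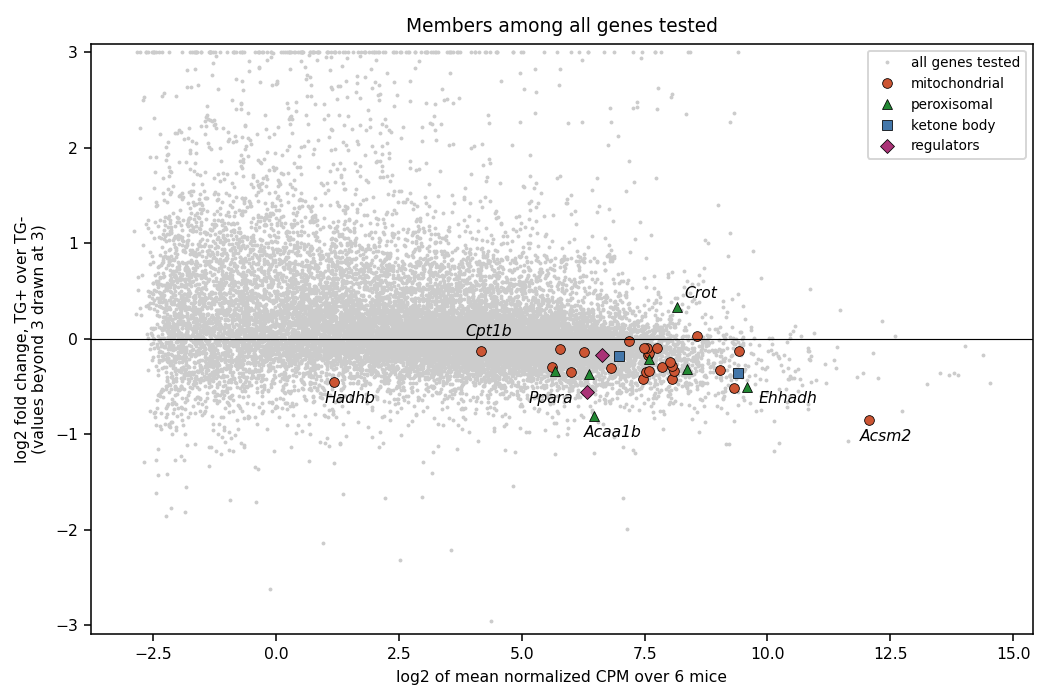
Each of the 19399 genes tested by its mean level (log2 CPM) and its log2 fold change of TG+ over TG- (values beyond 3 drawn at 3), with the 37 members by role. Of the members 35 lie below 0, down to Acsm2 at -0.85, and Acadm and Crot lie above it at 0.03 and 0.33.

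The order of levels per kilobase was led in TG- by Acsm2 with 822 ± 8.65 CPM per kilobase (SD, n = 3), then Hadh with 328 ± 29.8, Etfb with 326 ± 32.7 and Ehhadh with 301 ± 87.4, and the last 3 did not differ beyond their spread. In TG+ the same 4 genes led, with 457 ± 32 for Acsm2, 268 ± 7.2 for Etfb, 261 ± 10.2 for Hadh and 212 ± 6.06 for Ehhadh. The lowest levels in both groups were those of Ppargc1a, Cpt1b and Hadhb. Crot rose from place 19 to place 12 of the 37.

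One TG- mouse stood apart in this set. In 43-50, 30 of the 37 genes had their highest value of the TG- group, compared with 35.4% of all genes tested. The PPARα target Pdk4, which restrains glucose oxidation, was at 132 CPM in 43-50, at 15.5 and 27.6 CPM in the other TG- mice, and at 22.8, 30.5 and 56.2 CPM in TG+. Angptl4, another PPARα target, was at 119 CPM in 43-50 and at 38 and 63.5 CPM in the other TG- mice. Both kidneys of 43-50 agreed, with 134 and 129 CPM of Pdk4. The labels give no difference in feeding or treatment between the mice. Without 43-50, 14 genes were lower, beside 6.41% of all genes tested, and 1 was higher, and the median log2 fold change of the 37 was -0.25.

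Further genes in and around the same pathways, not among the 37, were counted in the same way. They stand beside 10.9% lower and 15.4% higher of all genes tested, and 28.2% lower among genes of at least 50 CPM. At an unadjusted p below 0.05 the share of all genes tested was 39.1% in either direction. A wider list around mitochondrial oxidation and ketone bodies was not limited to enzymes of these pathways and also held genes such as Acaca and Acacb. Of its 18 genes tested, 5 were lower and 2 were higher, with a median log2 fold change of -0.13. Slc22a5, the carnitine importer OCTN2, fell with a log2 fold change of -0.62 (adjusted p = 0.0146). Acsf2, a ligase of medium-chain acids, rose from 4.13, 5.76 and 5.53 CPM in TG- to 6.91, 7.97 and 8.76 CPM in TG+ (log2 fold change 0.62, SE 0.15, adjusted p = 0.0198, and 0.0722 without 43-75). Of 15 other peroxisomal genes 7 were lower and 0 were higher at an adjusted p below 0.05, with 10 of the 15 at an unadjusted p below 0.05 in either direction and a median of -0.24. The most lowered were Amacr, the racemase of branched acyl-CoA, with -0.68, and Pecr and Hacl1 with -0.51 each (adjusted p = 0.00101, 0.00208 and 0.00839). Of 14 peroxisome assembly genes 4 were lower and 0 higher by the adjusted p, with 7 at an unadjusted p below 0.05 and a median of -0.13, led by Pex6, Pex19 and Pex7 (-0.31, -0.27 and -0.21). The call of Pex7 was lost without 43-29 (adjusted p = 0.0696), 43-49 (0.0563), 43-50 (0.0845) or 43-76 (0.0846). Of 18 genes of mitochondrial import and upkeep 5 were lower and 0 higher, with 6 at an unadjusted p below 0.05 and a median of -0.07, led by Polrmt, Hspd1 and Opa1 (-0.31, -0.27 and -0.22). With scaling by library size alone the calls of these 3 genes and of Pex6, Pex19 and Pex7 were lost, with adjusted p-values of 0.0606 to 0.224, and Opa1 was at -0.10 and Pex7 at -0.09. The shares called lower were 27.8% for the wider mitochondrial and ketone list, 28.6% for the assembly genes and 27.8% for the import genes. These were close to the 28.2% of genes of at least 50 CPM, and that of the other peroxisomal genes was 46.7%.

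Regulators outside the 37 were divided. Pparg, which encodes PPARγ, the receptor of fat storage, rose from 1.31, 1.16 and 1.04 CPM in TG- to 6.25, 5.84 and 6.49 CPM in TG+ (log2 fold change 2.40, SE 0.13, adjusted p = 2.41e-05). Adipocyte markers were near 0 in 43-29 and present in 43-49 and 43-75, and their part in this rise was not tested. Rxra, the partner receptor of the PPARs, fell with a log2 fold change of -0.44 (adjusted p = 0.00139), and so did Esrra, an orphan receptor that works with PGC-1α, with -0.42 (adjusted p = 0.0188). The call of Esrra was lost without 43-50 (adjusted p = 0.0604), 43-75 (0.0539) or 43-76 (0.0587), and with scaling by library size alone (0.0708). In all, 5 of 13 such regulators (38.5%) were lower and 1 was higher, with a median of -0.11.

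Among 10 genes of fatty acid uptake and binding 2 (20%) were lower and 4 were higher, beside 10.9% and 15.4% of all genes tested, with a median of 0.04. Fabp5, a fatty acid binding protein, rose from 0.76, 0.718 and 0.778 CPM to 8.29, 6.08 and 7.99 CPM (log2 fold change 3.31, adjusted p = 1.60e-05). Cd36, a fatty acid transporter also found on macrophages, endothelium and adipocytes, rose from 627, 575 and 535 CPM to 1250, 889 and 1138 CPM (log2 fold change 0.91, adjusted p = 0.0019). Lpl, the lipase that frees fatty acids from lipoproteins, fell from 1147, 1691 and 1478 CPM to 866, 749 and 761 CPM (log2 fold change -0.86, adjusted p = 0.00354). Other PPARα targets went both ways, 2 lower (18.2%) and 2 higher of 11 tested with a median of -0.33. Cyp4a12a fell (log2 fold change -1.03, adjusted p = 1.55e-04), while Cyp4a14, of the same family of fatty acid hydroxylases, rose (1.63, adjusted p = 0.0143, and 0.0591 without 43-76). Fgf21, a fasting hormone gene, had 1, 0 and 2 reads in the TG- mice and 96, 195 and 88 reads in the TG+ mice, too few in TG- to give a fold.

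**Figure D4:**
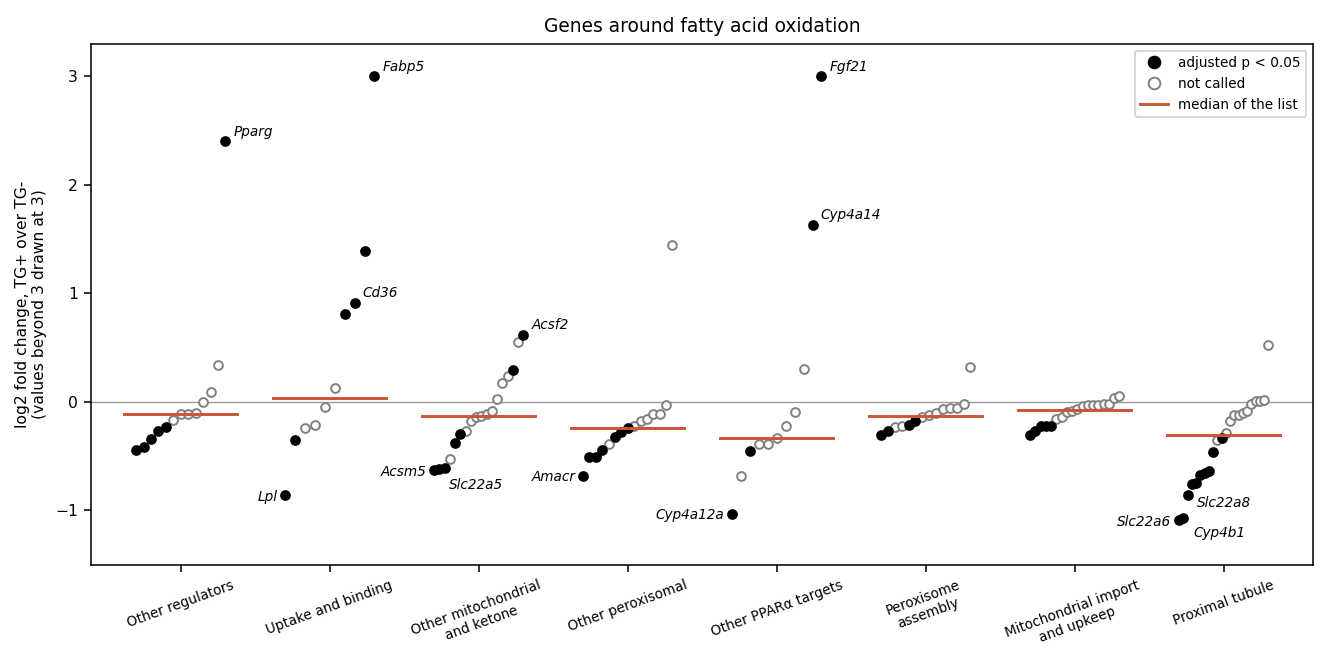
Log2 fold change of TG+ over TG- for genes around the pathway, by list, filled where the adjusted p was below 0.05, with the median of each list as a line (Fabp5 and Fgf21 are drawn at 3). Proximal tubule markers have a median of -0.31, near that of the 37 members, and Pparg, Fabp5 and Cyp4a14 stand above 1.

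Cell type markers went different ways by list. Their counts stand beside 10.9% lower and 15.4% higher of all genes tested, and 28.2% lower among genes of at least 50 CPM. At an unadjusted p below 0.05 the share of all genes tested was 39.1% in either direction. Of 22 proximal tubule markers 10 were lower and 0 were higher by the adjusted p, with 13 at an unadjusted p below 0.05 and a median of -0.31, and their summed level was 49383 to 53594 CPM in TG- and 39279 to 41237 CPM in TG+. The organic anion transporters Slc22a6 and Slc22a8 fell most along with Cyp4b1 (-1.09, -0.86 and -1.07), and 18 of the 22 lay below 0. The others were Pck1 at 0.52, Fbp1 and Gatm at 0.01 and Anpep at 0.02, none of them called. Immune markers were higher in 11 of 14, led by Jchain, Igkc and Cd79a (summed 361 to 430 CPM in TG- and 1194 to 1857 in TG+), endothelial markers in 9 of 9, led by Flt1, Emcn and Kdr (466 to 610 and 816 to 872), stromal markers in 7 of 9, led by Fn1, Dcn and Pdgfrb (208 to 248 and 329 to 433) and tubule injury markers in 5 of 9, led by Havcr1, Krt19 and Cd44 (571 to 706 and 682 to 818). Of 12 markers of other nephron segments 0 were called by edgeR, with 2 at an unadjusted p below 0.05 (4397 to 4446 CPM in TG- and 4059 to 5378 in TG+). Known HIF1α targets were higher in 9 of 9, led by Slc16a3, Hk2 and Ndufa4l2 (381 to 398 and 1887 to 2454 CPM). The study had already listed Car9, Ndufa4l2, Pdk1, Pfkp, Slc2a1 and Slc16a3 as raised in TRACK kidneys in these data. The count of targets was thus partly fixed beforehand. Of 7 hepatocyte markers tested 2, Apoa1 and Ttr, were higher, and Ucp1 of brown fat was at or near 0 in all mice. The 6 adipocyte markers summed to 11.1 CPM in 43-50, 32.1 in 43-49 and 20 in 43-75, and to at most 0.182 CPM in the other 3 mice. The call of Dcn was lost without 43-26, 43-49, 43-50, 43-75 or 43-76 (adjusted p = 0.0569 to 0.0841), and that of Pdgfrb without 43-75 (0.052) or 43-76 (0.054). Some of these sums rest on few genes. Igkc and Jchain made up most of the immune sum, with means of 208 and 77.4 CPM in TG- and 1002 and 449 CPM in TG+. Spp1, which was not called, made up most of the tubule injury sum (means of 597 and 650 CPM). Slc34a1 (8599 to 5075 CPM) and Cyp4b1 (4300 to 2053 CPM) made up much of the fall in the proximal tubule sum. The part of these cell types in the changes of the 37 genes was not tested. When the libraries with 1 CPM or more of Adipoq were left out, 8 libraries of 3 TG- and 2 TG+ mice remained, and 17 members were lower, beside 9.88% of all genes tested, and 1 was higher.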

How the data were processed

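RNAseq reads of 51 bases from 12 libraries were used, 2 kidneys of each of 3 TG+ and 3 TG- mice. The authors deposited, per gene and library, read counts without normalization and RPKM values scaled by a method the header calls BUQ. The genome build per the labels is mm9. The study names the Tuxedo tools for its analysis, but whether they made the deposited counts and whether strand was used are not given in the sources used here. The RPKM values were not used, since the lengths they imply were 0.959 to 8.47 times those of the longest coding transcripts. The authors' own comparison columns (fold changes and p-values) were not used.

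Counts of both kidneys were summed, filtered (filterByExpr), TMM-normalized and tested with edgeR 4.0.16 (R 4.3.3) for TG+ against TG-. The fit was also run on simulated counts, with few changed genes, balanced in direction, and a common spread for all genes. The data differ from that setting, so the simulation does not test the scaling used here. Identifiers were matched to GENCODE M21 symbols for 32642 of 37681 genes. Hadhb had 69 to 157 reads per mouse and each other member at least 720, so counting error is largest for Hadhb. Alternatives were DESeq2 1.42.0, other scalings, no filter, single kidneys, a replicate block, leaving out each mouse and, chosen after seeing the data, leaving out libraries with adipocyte transcripts. Values per mouse are given for members called and for regulators. Of each further list the called genes with the 3 largest changes and at least 1 CPM are named. Pdk4, Angptl4, Ucp1 and genes sharing reads with members were named after their values were seen. Some genes of the further lists are not reported here. The members and lists were chosen with earlier results of these data known. Python 3.11.15 was used for tables and plots.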

Additional observations from a re-analysis of the deposited data

How the results depend on the processing

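Each of the 37 members was set against 16 alternatives, 592 comparisons in all. Of these 538 kept direction and side of the threshold, 24 lost the call, 22 gained one and 8 changed sign. Centring on the median gene, among the 16, left all p-values as they were, so its 37 comparisons could not lose or gain a call. Of the 18 members called, 12 were called under every alternative (Acsm2, Cpt1a, Acaa1a, Acaa1b, Acadvl, Acadl, Acads, Acad11, Etfa, Etfdh, Acox2 and Acat1). At the threshold of the study 0 members were called under each of the 16. Scaling by library size alone moved the median of all genes to 0.13 on the log2 scale, and gave medians of -0.18 for the 37 members, -0.16 for the mitochondrial and -0.21 for the peroxisomal genes. Relative to all genes the median of the members was -0.31 under that scaling and under TMM, and 35 of 37 lay below the median gene under both. A change of scaling moves all genes by nearly the same amount. These values could therefore hardly differ, and they do not test the choice of scaling. The same scaling turned Crat, Acaa2 and Eci1 to 0.02, Acsm1 to 0.09 and Hadha to 0.03, none of them called, and ended the calls of Ppara, Acad10, Hadh, Etfb and Acox3. Without the libraries that held adipocyte transcripts Acsm3 was at 0.06, the call of Acox3 was lost (adjusted p = 0.0541) and Slc25a20 was called (-0.43, adjusted p = 0.043).

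Leaving out each mouse in turn gave 13 to 19 lower and 0 to 1 higher members, beside 6.08% to 10.3% lower and 10.1% to 14.1% higher of all genes, and mitochondrial medians of -0.32 to -0.18. The count of 0 higher came without 43-76, where Crot had an adjusted p of 0.0505 by edgeR. The lowest median was without 43-26, and the value nearest 0 was without 43-50. Acadm ranged from -0.01 to 0.06 and Acaa2 from -0.21 to 0.00. DESeq2 called 22 members lower, beside 12.6% of all genes it tested, with Cpt2, Echs1, Ehhadh, Hsd17b4 and Bdh1 added, and each kidney as its own library called 25, beside 21.1%, the latter by counting 2 libraries of a mouse as independent. The name of the deposited table groups the mice into 3 pairs and the controls were littermates, but the labels do not say which mice share a litter. The deviations of the paired mice correlated by 0.345, 0.298 and -0.0186, over 0.1 in 2 of 3 pairs. With these pairs as a replicate block 20 members were lower, beside 12.9% of all genes, and 1 higher. The block added the calls of Cpt2 (-0.41, adjusted p = 0.004), Slc25a20 (-0.29, 0.00748) and Hsd17b4 (-0.20, 0.0496) and changed no other call of a member. The cause of these differences was not tested. The 41 genes named outside the members kept their direction in all 656 comparisons and lost the call in 25, of which 7 came with scaling by library size alone (Esrra, Pex6, Pex19, Pex7, Polrmt, Hspd1 and Opa1).

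With 3 mice a group, members with low or scattered reads such as Hadhb, Cpt1b and Ehhadh have wide intervals, and a missed threshold does not show an unchanged gene.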

Other observations

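Adipocyte transcripts differed between the kidneys of 1 mouse. In the TG+ mouse 43-75 Adipoq was at 0.156 CPM in kidney 1 and 9.55 CPM in kidney 2, and in the TG- mouse 43-50 it was at 2.86 and 0.315 CPM. Both kidneys of 43-49 held it, at 5.39 and 7.81 CPM. Over the same pairs of kidneys Acsm2 was at 3168 and 3213 CPM in 43-75, 5542 and 5518 CPM in 43-50 and 2704 and 2988 CPM in 43-49. Cpt1b, for which the kidneys of 43-75 differed most among the members, was at 17.2 CPM in kidney 1 and 12.9 CPM in kidney 2 of that mouse.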
